A study of Mus musculus with 6 samples.

Results

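The core circadian clock genes were taken as the 10 genes Arntl, Clock, Per1, Per2, Per3, Cry1, Cry2, Nr1d1, Nr1d2 and Dbp, chosen by symbol from the 23282 entries of each count table. All 10 had counts in every library and passed the count filter, among 13771 genes tested. The 6 libraries hold RNA of 1 forebrain hemisphere of wild-type C57BL/6J male mice aged 8 to 10 weeks, without olfactory bulbs and cerebellum, kept on a cycle of light and dark with free access to food and water. In 3 libraries the mice had eaten a normal chow diet (NCD), and in the other 3 a high-fat diet (HFD) with 60 kcal% fat for 10 days. The sources used here do not give the time of day at which the tissue was taken, and do not say whether the 3 libraries of a diet came from separate mice, so p-values measure the spread between these libraries. QuantSeq starts from the poly(A) tail, so its reads lie near the 3′ end of a transcript. Levels are given as CPM, the counts scaled by library size after TMM adjustment.

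The circadian clock is a feedback loop of transcription that runs in nearly every cell. The proteins of Arntl (also called BMAL1) and Clock bind E-box sequences and switch on the Per and Cry genes, whose proteins then block ARNTL and CLOCK. In a second loop Nr1d1 and Nr1d2 (REV-ERB alpha and beta) are switched on through the same E-boxes and repress Arntl, while Dbp, an E-box target too, acts on D-box sequences of other genes. Because of this wiring, transcripts of Arntl on the one hand and of Per, Nr1d1 and Dbp on the other are known to peak at opposite times of day, with Cry1 later than the other repressors. The suprachiasmatic nucleus sets the phase of the other brain regions, which hold clocks of their own.

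The total count was between 6842785 and 9689372 per library, and 3 counts, taken as the floor, correspond to 0.316 to 0.432 CPM. Forebrain markers were present, with 99.1 to 155 CPM of Neurod6 and 89.1 to 126 CPM of Tbr1, and the cerebellar granule cell gene Gabra6 had at most 0.11 CPM. The 6 genes listed as cerebellum markers summed to 91.8 to 148 CPM, mostly from Calb2, Neurod1 and Pcp2. Cbln3 was at or under 0.97 CPM. The cerebellum had been taken off, so the sum does not measure the amount of it. The 8 genes listed as markers of the suprachiasmatic nucleus summed to 135 to 216 CPM, mostly from Six3 at 92 to 171.6 CPM. Among its neuropeptides Vip had 16.2 to 26.1 CPM and Avp 1.1 to 5.35 CPM, and Nms was at 0 CPM in 4 of 6 libraries. Prok2 had 1.15 to 2.08 CPM and Lhx1 1.24 to 2.32 CPM. The RNA is of a forebrain hemisphere, so the sum mainly follows Six3 and does not measure the amount of that nucleus. HFD replicate 3 stood apart. Its summed level of 6 pituitary transcripts was 1271 CPM against 4.61 to 13.4 CPM in the other libraries, led by 1092 CPM of Gh, and Prl, Cga and Fshb were at or under 0.539 CPM elsewhere. The ribosomal RNA precursor Rn45s took 8.75% of its counts, the highest share, against 5.55% to 7.35% in the others. The same library had the lowest sums of the suprachiasmatic markers, at 135 CPM against 187 to 216 CPM, and of the cerebellum markers, at 91.8 CPM against 106 to 148 CPM. Six3 made up most of the gap in the former, at 92 CPM against 148 to 172 CPM. Calb2 did so in the latter, at 39.5 CPM against 53.4 to 95.6 CPM. Avp, Rgs16, Lhx1 and Barhl1 were also lowest there, and Six6 highest. Vip, at 25.3 CPM, Pcp2, at 17.9 CPM, and Neurod1, at 33.5 CPM, lay near the top of their ranges. Summed liver transcripts were highest in NCD replicate 2, at 52.2 CPM, against 5.64 to 30.5 CPM in the other libraries. Results that rest on HFD replicate 3 are therefore given with and without it.

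The sequences upstream of 5 core clock genes are shown with any exact matches to elements through which the loop is known to run. They cover the 250 bases before the RefSeq transcription start on GRCm38.p6, written 5′ to 3′ on the strand of the gene. Capitals mark each match to the E-box (CACGTG), its variant (CACGTT) or the D-box (TTATGTAA or TTATGCAA), searched on both strands. Per1 lies on the plus strand (chr11:69098699-69098948), Per3 on the minus strand (chr4:151044666-151044915), Cry1 on the minus strand (chr10:85185055-85185304), Nr1d1 on the minus strand (chr11:98775378-98775627) and Arntl on the plus strand (chr7:113207215-113207464).
Per1: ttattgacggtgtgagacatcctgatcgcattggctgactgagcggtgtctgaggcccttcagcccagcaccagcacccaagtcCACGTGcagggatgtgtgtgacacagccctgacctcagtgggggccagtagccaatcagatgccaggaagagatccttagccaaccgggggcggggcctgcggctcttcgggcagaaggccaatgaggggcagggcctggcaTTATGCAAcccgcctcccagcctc
Per3: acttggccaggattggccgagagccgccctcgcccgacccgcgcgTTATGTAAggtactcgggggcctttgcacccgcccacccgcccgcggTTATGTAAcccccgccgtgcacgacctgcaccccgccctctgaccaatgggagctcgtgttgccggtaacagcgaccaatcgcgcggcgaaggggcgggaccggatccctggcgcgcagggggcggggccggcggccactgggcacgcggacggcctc
Cry1: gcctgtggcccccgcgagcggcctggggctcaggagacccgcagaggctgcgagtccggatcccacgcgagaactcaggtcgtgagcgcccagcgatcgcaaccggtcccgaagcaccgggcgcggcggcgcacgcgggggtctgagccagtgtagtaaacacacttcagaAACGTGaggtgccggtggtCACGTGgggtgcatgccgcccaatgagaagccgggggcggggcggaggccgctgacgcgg
Nr1d1: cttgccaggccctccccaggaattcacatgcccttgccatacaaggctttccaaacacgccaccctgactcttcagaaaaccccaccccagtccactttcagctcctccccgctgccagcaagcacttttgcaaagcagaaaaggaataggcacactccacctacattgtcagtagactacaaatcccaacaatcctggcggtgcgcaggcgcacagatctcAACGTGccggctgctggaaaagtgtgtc
Arntl: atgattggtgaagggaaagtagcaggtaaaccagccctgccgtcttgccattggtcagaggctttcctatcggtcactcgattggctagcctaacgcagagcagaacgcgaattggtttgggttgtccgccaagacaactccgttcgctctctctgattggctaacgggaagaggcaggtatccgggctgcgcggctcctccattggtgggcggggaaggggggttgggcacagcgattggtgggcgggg

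In the printed windows Per1 held 1 E-box, 166 bases before the start, and 1 D-box, 24 bases before it. Per3 held 2 D-boxes, 205 and 158 bases before the start. Cry1 held 1 E-box 60 bases before the start and 1 variant E-box at 79 bases, and Nr1d1 held 1 variant E-box at 28 bases. Cry2 had 1 variant E-box, 166 bases before its start, while the windows of Arntl, Clock, Nr1d2 and Dbp held no match. The RefSeq table lists further starts for Per1 (chr11:69099902-69100151), Arntl (chr7:113207261-113207510) and Clock, whose windows held none of these motifs. Over all 32851 windows of this length, 6.02% held an E-box, 3.85% its variant and 1.5% a D-box. The same search for the core of the element bound by ROR and REV-ERB proteins (TAGGTCA or TGGGTCA), present in 5.38% of all windows, found no match upstream of the core clock genes. The same was true of the cyclic AMP response element (TGACGTCA), present in 1.55%. Of the 10 genes, 9 had a window in the RefSeq table, and Per2 had none. Only the exact letters given were searched, so elements that differ from them by a base are missed. Letters in a window describe the sequence alone, and other elements of these genes can lie elsewhere.

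After 10 days of HFD, no difference between the diets was detected in the core clock genes. Of the 10 genes, 0 had an adjusted p under 0.05 and 0 had an unadjusted p under 0.05 (edgeR's quasi-likelihood test), where 0% and 3.68% of all genes tested did. Both counts were also 0 with DESeq2. Their median log2 fold change was -0.02, compared with -0.00245 for all genes tested, with 4 genes above and 6 below 0. The fold changes lay between -0.17 for Per1 and 0.28 for Cry1.

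**Figure D1:**
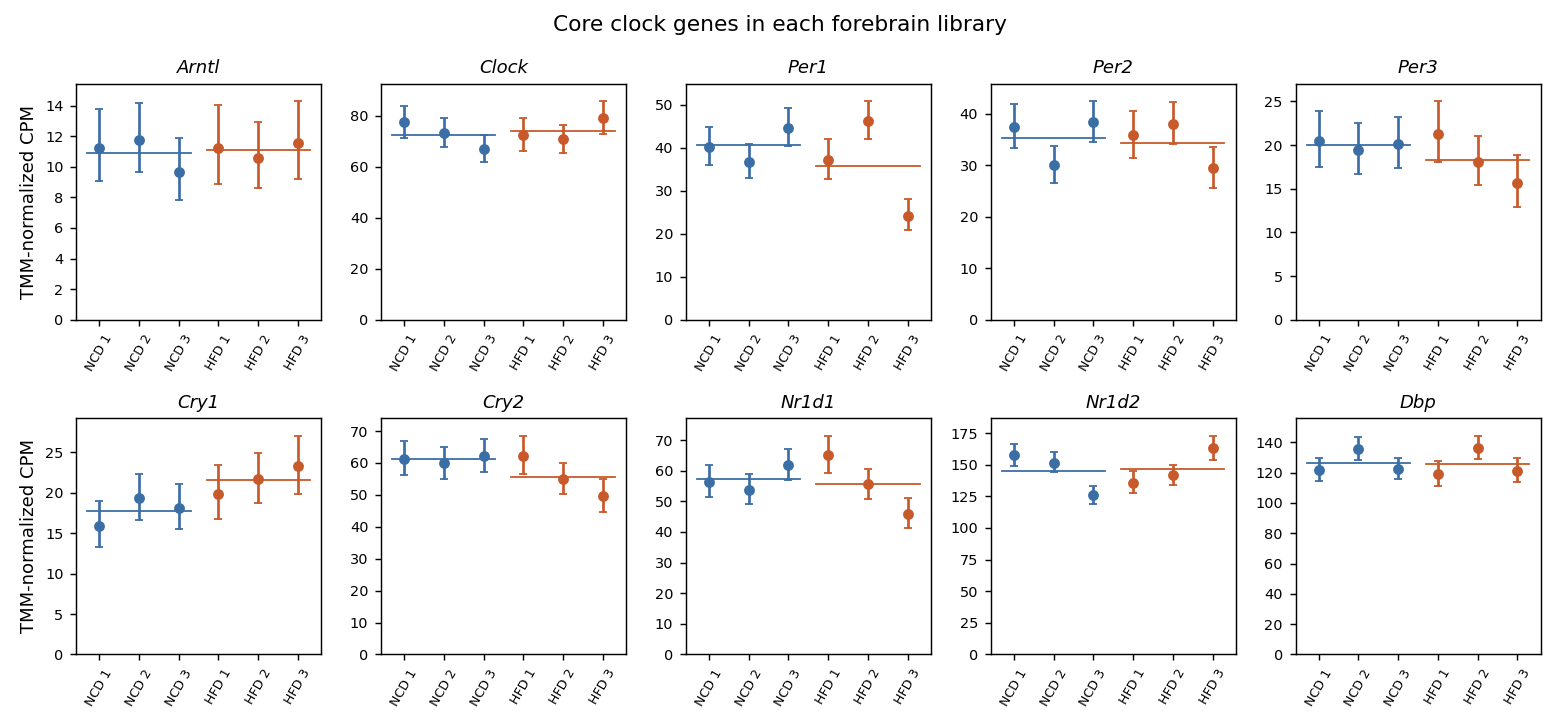
Each panel plots 1 core clock gene, with the 6 libraries on the horizontal axis and TMM-normalized CPM from 0 on the vertical axis (blue, NCD; orange, HFD). Bars are exact Poisson 95% intervals of the count and horizontal lines are diet means. Per1 was lowest in HFD replicate 3, at 24.2 CPM, and Cry1 was higher in each HFD library than in any NCD library.

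Arntl and Clock encode the activators. Arntl, on chromosome 7 from 113207465 to 113314126 of GRCm38, measured 11.2, 11.8 and 9.69 CPM in NCD replicates 1 to 3, against 11.2, 10.6 and 11.5 CPM in HFD replicates 1 to 3. The diets overlapped fully, with a log2 fold change of 0.03 ± 0.18 (SE) and a 95% interval from -0.36 to 0.42. Clock, on chromosome 5 from 76209868 to 76304792, stood at 77.3, 73.2 and 67 CPM under NCD, and at 72.4, 70.8 and 78.9 CPM under HFD. Its log2 fold change was 0.03 ± 0.11 (SE), and the lowest value, in NCD replicate 3, and the highest, in HFD replicate 3, lay within 1.18-fold of each other. Both activators were thus among the steadiest of the 10 genes. The variance of Arntl around the diet means, relative to the trend with abundance in edgeR, stood at the 6.75th percentile of all genes tested and that of Clock at the 20.9th.

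The Per genes encode repressors, of which Per1 and Per2 are known to be induced rapidly by light. Per1, on chromosome 11 from 69095217 to 69109960, reached 40.2, 36.8 and 44.7 CPM in the NCD group compared with 37.1, 46.2 and 24.2 CPM in the HFD group. The HFD libraries held both the highest and the lowest value of the 6. In HFD replicate 3 the exact Poisson 95% interval was 20.8 to 28 CPM, and in the other 5 libraries the intervals began at or above 32.7 CPM, so counting error alone does not cover the gap. The log2 fold change was -0.17 ± 0.18 (SE), with a 95% interval from -0.55 to 0.21 (unadjusted p = 0.352, adjusted p = 0.979, edgeR). Leaving out HFD replicate 3 gave 0.04. Leaving out HFD replicate 2 gave -0.41 (unadjusted p = 0.0436, adjusted p = 0.963, edgeR). The direction of Per1 therefore rested on 1 library. With a variance at the 97.7th percentile of all genes tested, Per1 was the most variable core clock gene, and its highest level was 1.91 times its lowest.

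Per2, on chromosome 1 from 91415982 to 91459324, measured 37.5, 30.1 and 38.3 CPM in NCD replicates 1 to 3, against 35.8, 38 and 29.4 CPM in HFD replicates 1 to 3. In each diet 1 library was low, NCD replicate 2 and HFD replicate 3, and the log2 fold change was -0.03 ± 0.14 (SE). Per3, on chromosome 4 from 151003652 to 151044665, stood at 20.5, 19.4 and 20.1 CPM under NCD, and at 21.3, 18 and 15.7 CPM under HFD. The NCD libraries were tight, at 20 ± 0.546 CPM (SD, n = 3), while the HFD libraries, at 18.3 ± 2.83 CPM (SD, n = 3), spread to both sides of them, for a log2 fold change of -0.13 ± 0.15 (SE).

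Cry1 and Cry2 encode the cryptochromes, repressors of ARNTL and CLOCK. Cry1, on chromosome 10 from 85131700 to 85185064, reached 15.9, 19.3 and 18.1 CPM in the NCD group compared with 19.9, 21.6 and 23.2 CPM in the HFD group. It was the only core clock gene whose diets did not overlap, higher in 3 of 3 HFD libraries, where 4.31% of all genes tested were above every NCD library. The log2 fold change of 0.28 ± 0.15 (SE), with a 95% interval from -0.04 to 0.59, did not pass the test (unadjusted p = 0.0804, adjusted p = 0.979, edgeR). It stayed between 0.21 and 0.34 over the alternatives. Cry2, on chromosome 2 from 92403646 to 92434043, measured 61.3, 59.9 and 62.2 CPM in NCD replicates 1 to 3, against 62.3, 55 and 49.5 CPM in HFD replicates 1 to 3. Its HFD libraries reached from above to below all NCD libraries, and its log2 fold change was -0.14 ± 0.12 (SE). The 2 cryptochromes thus had fold changes of opposite sign, of which neither passed the test, and the difference between them was not tested.

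Nr1d1, on chromosome 11 from 98767932 to 98775333, stood at 56.3, 53.8 and 61.8 CPM under NCD, and at 65.1, 55.6 and 45.9 CPM under HFD. Both extremes were HFD libraries, and the log2 fold change was -0.05 ± 0.13 (SE). Nr1d2, on chromosome 14 from 18204054 to 18239127, reached 157, 152 and 126 CPM in the NCD group compared with 136, 142 and 163 CPM in the HFD group. Here NCD replicate 3 was lowest and HFD replicate 3 highest, and the log2 fold change was 0.02 ± 0.12 (SE), which turned negative with library size alone as scaling. The output gene Dbp, on chromosome 7 from 45705088 to 45710203, measured 122, 136 and 123 CPM in NCD replicates 1 to 3, against 119, 136 and 121 CPM in HFD replicates 1 to 3. Its highest level was 1.15 times its lowest, the smallest range among the 10 genes, and its log2 fold change was -0.01 ± 0.11 (SE), with a 95% interval from -0.24 to 0.22.

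**Figure D2:**
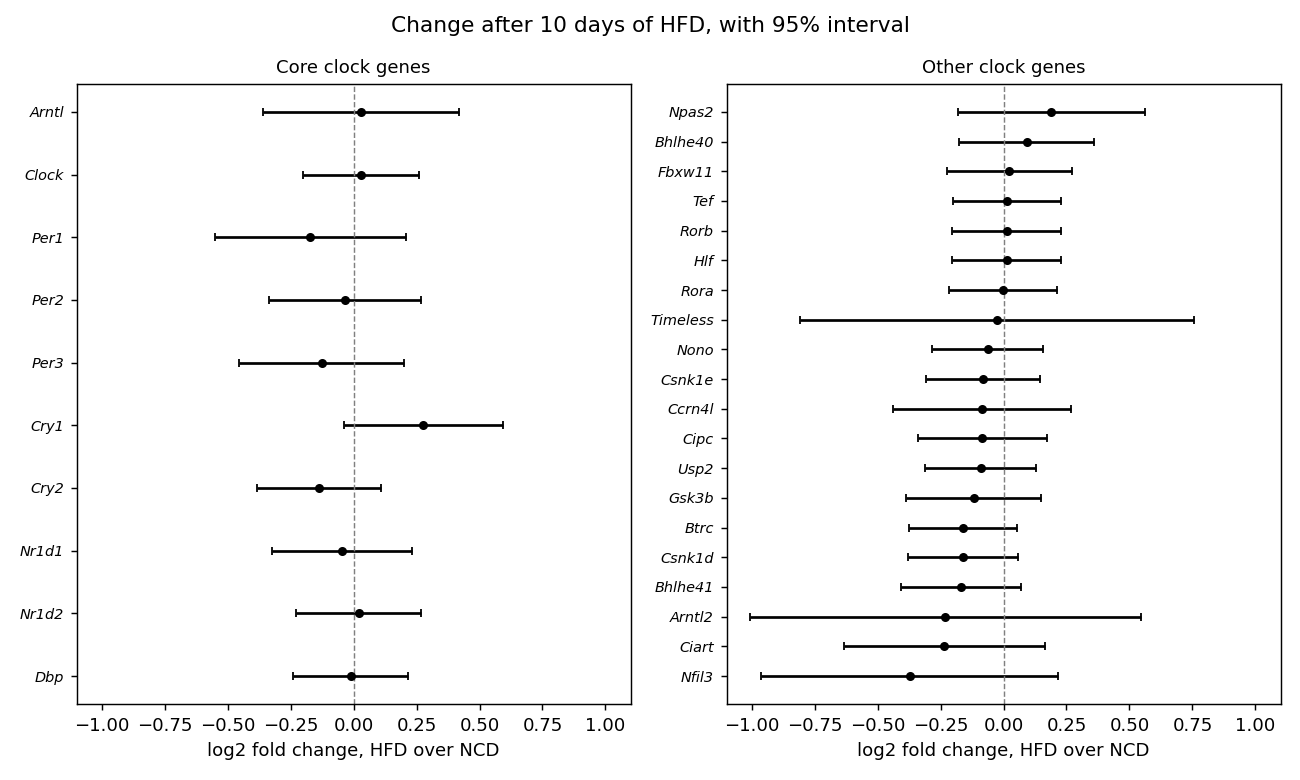
Points are log2 fold changes of HFD over NCD from edgeR and bars are their 95% intervals, for the 10 core clock genes on the left and 20 other clock genes on the right. Every interval drawn includes 0.

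Of 21 further clock genes, 20 passed the count filter, all but Fbxl21. Of these, 0 were higher and 0 lower with an unadjusted p under 0.05 in edgeR, where 1.71% and 1.98% of all genes tested were, and DESeq2 also called 0. The median log2 fold change was -0.08, with 6 genes above and 14 below 0. Npas2, a paralog of Clock expressed in the forebrain, had a mean of 13.7 CPM under NCD and 15.6 CPM under HFD, for a log2 fold change of 0.19 ± 0.17 (SE). The output genes Tef and Hlf, related to Dbp, had log2 fold changes of 0.01 each, which turned negative with library size alone as scaling. Nfil3, which competes with DBP at D-boxes, stood at 7.65, 5.72 and 4.95 CPM under NCD, and at 3.89, 5.68 and 4.4 CPM under HFD, and its log2 fold change was -0.37 ± 0.28 (SE). Ciart, an E-box target that represses ARNTL and CLOCK, reached 15.7, 14.8 and 22.7 CPM in the NCD group compared with 17.6, 14.5 and 13.2 CPM in the HFD group, and its log2 fold change was -0.23 ± 0.19 (SE). Its highest value came from NCD replicate 3 and its lowest from HFD replicate 3. For the repressors Bhlhe40 and Bhlhe41 the log2 fold changes were 0.09 and -0.17.

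All HFD libraries lay below all NCD libraries in 3 of the 20 genes, namely Bhlhe41, the casein kinase gene Csnk1d and the ubiquitin ligase gene Btrc. The latter pair acts on PER proteins, Csnk1d by phosphorylation and Btrc by marking them for breakdown. Over all genes tested 4.49% lay below in the same way. Csnk1d measured 115, 111 and 114 CPM in NCD replicates 1 to 3, against 109, 99.5 and 96 CPM in HFD replicates 1 to 3 (log2 fold change -0.16 ± 0.10 (SE), unadjusted p = 0.136, adjusted p = 0.979, edgeR). Btrc reached 146, 145 and 149 CPM in the NCD group compared with 138, 131 and 125 CPM in the HFD group (log2 fold change -0.16 ± 0.10 (SE), unadjusted p = 0.135, adjusted p = 0.979, edgeR). Bhlhe41 stood at 82.3, 77.3 and 78.9 CPM under NCD, and at 73.7, 76.5 and 61.7 CPM under HFD (log2 fold change -0.17 ± 0.11 (SE), unadjusted p = 0.152, adjusted p = 0.979, edgeR).

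Per1 is also known to be induced by neuronal activity and by glucocorticoids, and clock transcripts respond to temperature, so transcripts of these responses were set beside it. An unadjusted p under 0.05 was found for 3.68% of all genes tested. Of 10 immediate early genes 1 passed this threshold, Npas4. It stood at 1.6, 2.37 and 5.37 CPM under NCD, and at 1.87, 1.2 and 1.51 CPM under HFD (log2 fold change -1.05 ± 0.47 (SE), unadjusted p = 0.0399, adjusted p = 0.979, edgeR). The glucocorticoid-responsive list also held 1 of 10, Sult1a1. It reached 7.78, 4.75 and 4.53 CPM in the NCD group compared with 7.77, 8.52 and 9.49 CPM in the HFD group (log2 fold change 0.61 ± 0.25 (SE), unadjusted p = 0.0293, adjusted p = 0.979, edgeR). Of 7 temperature-responsive genes 1 passed the unadjusted threshold, Cirbp, a cold-inducible RNA-binding protein gene whose 3 HFD libraries lay below every NCD library, as they did for 4.49% of all genes tested. It measured 83.1, 91.1 and 69.3 CPM in NCD replicates 1 to 3, against 57.7, 68.8 and 64.8 CPM in HFD replicates 1 to 3 (log2 fold change -0.35 ± 0.12 (SE), unadjusted p = 0.0124, adjusted p = 0.979, edgeR). In HFD replicate 3, where Per1 was lowest, the summed level of the immediate early genes was 323 CPM against 279 to 398 CPM elsewhere. That of the glucocorticoid-responsive genes was 419.6 CPM against 407 to 439 CPM. In both lists HFD replicate 3 lay within the range of the other libraries. In the temperature-responsive list it was the highest library, at 1004 CPM against 929 to 993 CPM. Most of that sum was Hspa8, at 587 CPM, and Hsph1, at 253 CPM. Both were highest there, as was Hspa1b, while Hspa1a was lowest. The level of Hspa8 was not particular to HFD replicate 3. It measured 551, 556 and 504 CPM in NCD replicates 1 to 3, against 585, 585 and 587 CPM in HFD replicates 1 to 3. Its log2 fold change was 0.12 ± 0.09 (SE) (unadjusted p = 0.196, adjusted p = 0.979, edgeR). Over all genes tested 4.31% lay above every NCD library in the same way. Cirbp, Rbm3 and Dnajb1 lay within the range of the other libraries. The part of these responses in the level of Per1 was not tested.

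HFD replicate 3 was the library in which the core clock genes departed most from the rest. It was the lowest of the 6 libraries for Per1, Per2, Per3, Cry2 and Nr1d1 and the highest for Clock, Cry1 and Nr1d2, so it held an extreme for 8 of 10 genes. Over all genes tested it held an extreme for 53.4%, the largest share of any library, and the next was NCD replicate 3 with 43%. As a log2 difference from the mean of the other 5 libraries, HFD replicate 3 was at -0.75 for Per1, -0.34 for Nr1d1, -0.34 for Per3, -0.28 for Per2 and -0.28 for Cry2. On the other side stood Cry1 at 0.30, Nr1d2 at 0.20 and Clock at 0.13. The median absolute deviation of HFD replicate 3 was 0.28 over the core clock genes and 0.23 over all genes tested. Among the further clock genes Ciart was at -0.34 and Bhlhe41 at -0.33 in the same library. In NCD replicate 3 the opposite arrangement was seen for several genes, with Per1 at 0.30, Ciart at 0.58, Arntl at -0.21, Nr1d2 at -0.25 and Npas2 at -0.42. The mean set against NCD replicate 3 includes HFD replicate 3, so part of this opposition follows from the calculation. HFD replicate 3 is also the library with the most pituitary transcripts and Rn45s. It had the lowest sums of the genes listed as suprachiasmatic and cerebellum markers too, mainly through Six3 and Calb2. Vip, Pcp2 and Neurod1 were not low there. In RNA of a forebrain hemisphere these sums do not measure the amount of either tissue. The part of these differences in the clock values was not tested.

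**Figure D3:**
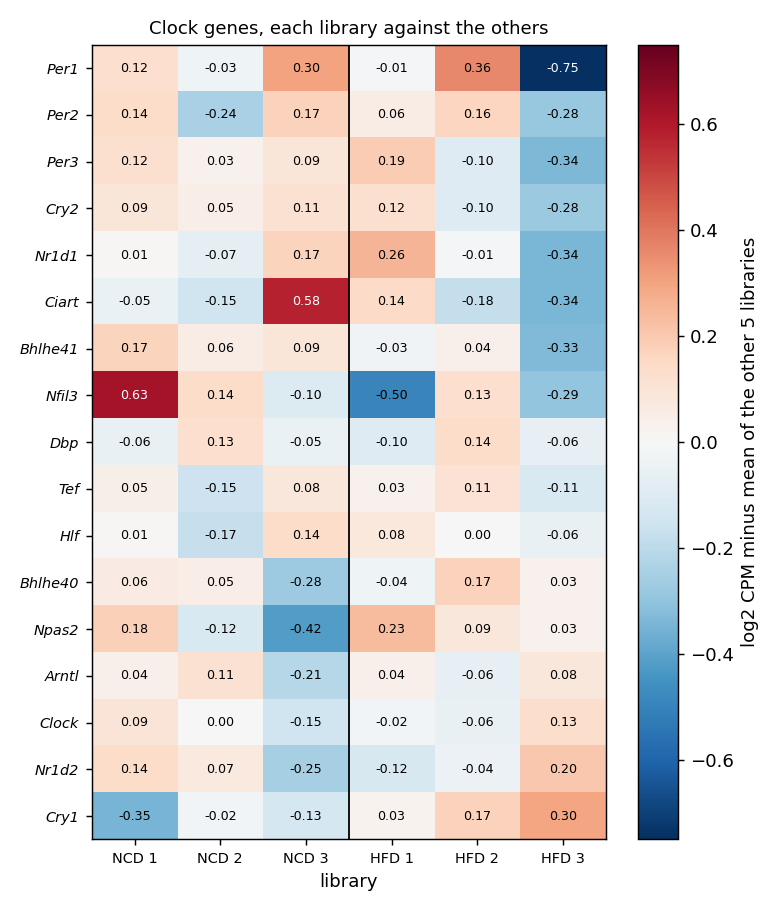
Colours and numbers give, for 10 core and 7 other clock genes, the log2 CPM of a library minus the mean of the other 5 libraries. Libraries are columns, NCD left and HFD right of the line. The column of HFD replicate 3 runs from -0.75 for Per1 to 0.30 for Cry1.

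Ratios within a library do not depend on its scaling, and 4 of them were compared between the diets, each to Arntl. The log2 ratio of Per1 to Arntl ran 1.84, 1.64 and 2.20 over NCD replicates and 1.72, 2.12 and 1.06 over HFD replicates, a difference of -0.26 (exact permutation test, two-sided, p = 0.5). For Nr1d1 the values were 2.32, 2.19 and 2.67 under NCD against 2.53, 2.39 and 1.98 under HFD, a difference of -0.09 (exact permutation p = 0.8). In both, HFD replicate 3 was the lowest library. For Dbp the difference was -0.05 (exact permutation p = 0.6). The ratio of Cry1 to Arntl was 0.70 ± 0.20 under NCD and 0.95 ± 0.11 under HFD (SD, n = 3 each), a difference of 0.25 (exact permutation p = 0.2). Adjusted over the 4 ratios, each p was 0.8, and 0.1 is the smallest p that 3 libraries against 3 allow. Without HFD replicate 3 the differences of Per1, Nr1d1 and Dbp were 0.03, 0.06 and 0.00306, and that of Cry1 was 0.22.

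The second question was how the core clock genes covaried across the libraries. Over the 6 libraries, the log2 CPM of Arntl and of Clock ran against that of Per1, Per2 and Per3 in 6 of 6 pairs, with Pearson r between -0.74 and -0.23. They also ran against Nr1d1 in 2 of 2 pairs, with r between -0.69 and -0.50. The other core clock genes differed among themselves. Nr1d2 is switched on through the same E-boxes as Nr1d1, yet it did not run against the activators. It ran with Arntl (r = 0.81) and Clock (r = 0.94), the opposite of Nr1d1. Cry1 ran weakly with both (r = 0.20 and 0.13). Cry2 ran against both (r = -0.30 and -0.51), and Dbp had r = 0.09 and -0.23. For the Per genes and Nr1d1 the same signs were found in deviations from the diet means. There r was between -0.74 and -0.17 for the Per genes and between -0.68 and -0.48 for Nr1d1. Without HFD replicate 3, 4 of the 6 pairs with Per genes were negative, and r for Per3 was 0.13 with Arntl and 0.22 with Clock. The pairs are not independent, since they share genes and the same 6 libraries.

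**Figure D4:**
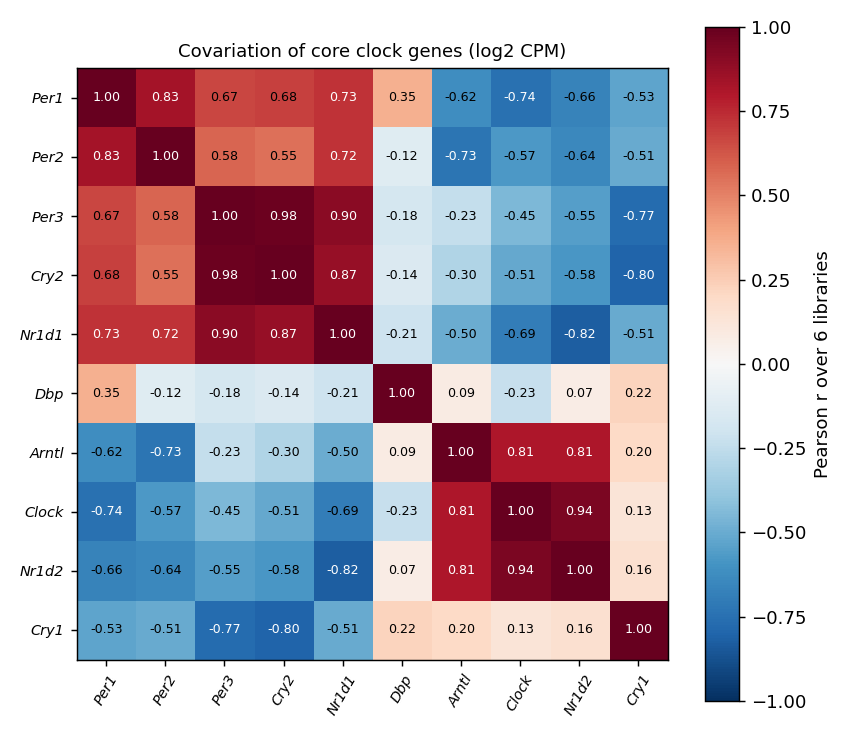
Each cell gives Pearson r of log2 CPM over the 6 libraries for a pair of core clock genes, from -1 (blue) to 1 (red). Genes were ordered after the values were seen. Per1, Per2, Per3, Cry2 and Nr1d1 form 1 positive block, and Arntl, Clock, Nr1d2 and Cry1 form another. For Dbp r lies between -0.23 and 0.35 with all 6 libraries, and between -0.90 and 0.56 without HFD replicate 3.

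Of all 45 pairs, 7 had r of at least 0.8 and 2 had r of at most -0.8, or 9 in all, where 4.17% and 4.07% of all pairs of genes tested did, together 8.24%. The count of 9 pairs became 15 without NCD replicate 1 and 6 without NCD replicate 3 or HFD replicate 3. The share over all pairs of genes tested was computed with all 6 libraries only. The counts with a library left out therefore lack it and are not directly comparable with 9. The closest pair was Per3 and Cry2, with r = 0.98 and Spearman's rho = 0.94 (exact permutation over 720 pairings, p = 0.00417 and 0.0167, adjusted p = 0.0938 and 0.188 over the 45 pairs). Without the 2 libraries farthest from the median of Per3, HFD replicates 2 and 3, r was 0.81. Clock and Nr1d2 had r = 0.94 and rho = 0.94 (exact permutation p = 0.00694 and 0.0167, adjusted p = 0.104 and 0.188), and r was 0.79 without NCD replicate 3 and HFD replicate 3. Per1 and Per2 had r = 0.83 and rho = 0.94 (exact permutation p = 0.00278 and 0.0167, adjusted p = 0.0938 and 0.188), and r was 0.73 without HFD replicates 2 and 3. On the negative side stood the paralogs Nr1d1 and Nr1d2, with r = -0.82 and rho = -0.77 (exact permutation p = 0.0431 and 0.103, adjusted p = 0.273 and 0.385), and r was -0.84 without HFD replicates 1 and 3. Arntl and Clock had r = 0.81 and rho = 0.83 (exact permutation p = 0.0486 and 0.0583, adjusted p = 0.273 and 0.292), but r was -0.02 without NCD replicate 3 and HFD replicate 2, so their relation rested on those libraries. No pair passed an adjusted p of 0.05, while 8 pairs had an unadjusted p under 0.05 by Pearson's r and 6 by Spearman's rho.

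Grouped after their values were seen, the 10 pairs between Per1, Per2, Per3, Cry2 and Nr1d1 were all positive, with r from 0.55 to 0.98. The 6 pairs between Arntl, Clock, Nr1d2 and Cry1 were also positive, with r from 0.13 to 0.94, and the 20 pairs across these groups were all negative, from -0.82 to -0.23. In deviations from the diet means 1 pair, Clock and Cry1, changed sign, to -0.05. Without HFD replicate 3 the counts of positive pairs were 6 of 10 and 3 of 6 within the groups and 5 of 20 across them. Part of the pattern therefore rested on this library. Per3 with Cry2, at r = 0.94, and Clock with Nr1d2, at r = 0.91, kept their relation without it. Among the positive pairs, so did Arntl with Clock (r = 0.81) and with Nr1d2 (r = 0.80), and Per1 with Per2 (r = 0.74). The 2 pairs with Arntl did not keep it without NCD replicate 3 and HFD replicate 2. There r of Arntl was -0.02 with Clock and 0.39 with Nr1d2.

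The share of counts taken by Rn45s moved with some of these genes. Over the 6 libraries its r was -0.83 with Per3, with rho = -0.71 (exact permutation p = 0.0347 and 0.136, adjusted p = 0.569 and 0.7 over 20 relations of the core clock genes with Rn45s or the total count). It was -0.79 with Cry2, with rho = -0.60 (exact permutation p = 0.0569 and 0.242, adjusted p = 0.569 and 0.806). Leaving out the 2 libraries farthest from the median share, HFD replicates 1 and 3, changed these to -0.17 and -0.13, so both relations rested on those libraries. For the other 8 genes r lay between -0.64 for Nr1d1 and 0.54 for Cry1. Without HFD replicate 3 it was 0.96 with Per1 and -0.92 with Arntl, against -0.51 and -0.23 with all 6 libraries. No adjusted p was under 0.05, and the part of Rn45s in the covariation was not tested.

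With all 6 libraries Dbp belonged to neither group. Its r with the other 9 core clock genes lay between -0.23 and 0.35, with 4 positive and 5 negative. This rested on HFD replicate 3. Without it, r of Dbp was -0.90 with Per3, -0.82 with Cry2, -0.80 with Nr1d1 and 0.56 with Cry1, again with 4 positive and 5 negative. The genes tested whose pattern over the 6 libraries was most like that of Dbp were Mtm1 (r = 0.98), Slc46a1 (r = 0.98), Ccdc51 (r = 0.97), Sphk2 (r = 0.97) and Tmem150a (r = 0.97). Those most opposed were Podn (r = -0.99), Tsen34 (r = -0.98), Cdk7 (r = -0.97), Abca8b (r = -0.97) and Gm5113 (r = -0.97). Among 13770 genes compared, 11 reached an r of 0.95 with Dbp in the positive direction and 11 in the negative.

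Of these genes, Sphk2, a sphingosine kinase gene, shares its position with Dbp. In GENCODE vM21 on GRCm38 its exons, on the other strand, cover all 500 of the last 500 bases of Dbp, where QuantSeq reads of Dbp fall. The counts of Sphk2 were 1122, 1388 and 1351 under NCD and 958, 1419 and 1009 under HFD. For Dbp they were 987, 1258 and 1163 under NCD and 827, 1249 and 883 under HFD. The ratio of Sphk2 to Dbp counts lay between 1.103 and 1.162 in every library. Between the genes r was 0.97 with rho = 0.94 (exact permutation p = 0.00278 and 0.0167, adjusted p = 0.00556 and 0.0333 over 2 relations). Without NCD replicate 2 and HFD replicate 2, r was 0.70. Sphk2 was already named above for its high r with Dbp in the same libraries. These p-values do not allow for that choice and are no separate evidence. Whether the counting used strand is not stated in the sources used here, so reads of Dbp and Sphk2 cannot be told apart, and the level and steadiness of Dbp carry this limit. Nr1d1 overlaps Thra, a thyroid hormone receptor gene on the other strand, over 275 of its last 500 bases. Thra stood at 87.9, 87.9 and 105 CPM under NCD, and at 89.7, 95.5 and 91 CPM under HFD. Its r with Nr1d1 was 0.30 with rho = 0.09 (exact permutation p = 0.525 and 0.919, adjusted p = 0.525 and 0.919), or 0.88 without HFD replicates 1 and 3. The count ratio of Thra to Nr1d1 varied from 1.38 to 1.98, unlike the narrow range of Sphk2 to Dbp.

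**Figure D5:**
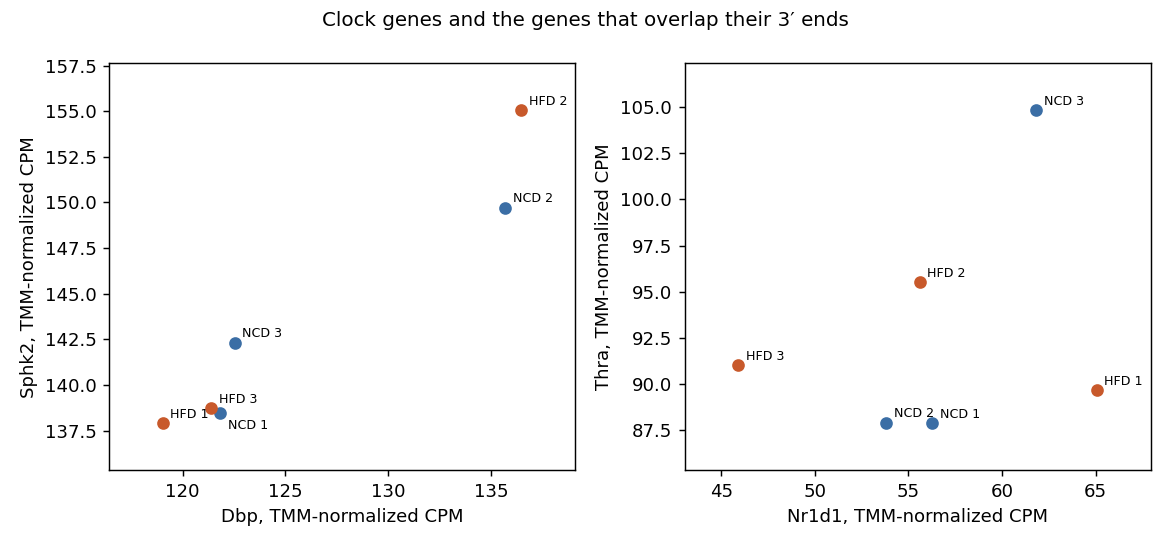
The left panel plots Sphk2 against Dbp and the right panel Thra against Nr1d1, both axes in TMM-normalized CPM and not starting at 0, with 1 point per library (blue, NCD; orange, HFD). The points of Dbp and Sphk2 rise together, and those of Nr1d1 and Thra do not line up.

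Sequence shared with other genes was also counted. Of the runs of 50 bases in their transcripts, both strands searched, 0 were found in transcripts of other genes for Arntl, Clock, Per1, Per2 and Cry1. The share was 0.217% for Per3, 3.29% for Cry2, 5.13% for Nr1d2, 7.27% for Nr1d1 and 16.2% for Dbp. The shares are over whole transcripts, whereas the reads lie near the 3′ end, and multiple alignments were counted, so they do not give the share of reads that could belong to more than a single gene. Exons of Gm45355 overlap Arntl and those of D930015M05Rik overlap Cry2 on the other strand, both outside the last 500 bases.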

How the data were processed

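RNA of forebrain hemispheres was sequenced in 3 NCD and 3 HFD libraries. The authors prepared QuantSeq 3′ libraries, trimmed the reads, aligned them to mm10 with Bowtie2, counted unique and multiple alignments with Bedtools, and deposited read counts per gene symbol. Their later quantile step does not enter the deposited counts. Versions, annotation and the use of strand are not given in the sources used here. Samples were grouped by their titles. Entries with a repeated symbol (79) were kept apart. Some genes of the clock and marker lists are not reported here and enter no list count.

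The software was edgeR 4.0.16 for the main comparison, DESeq2 1.42.0 and limma 3.58.1 for alternatives, all under R 4.3.3, and Python 3.11.15 with scipy 1.17.1 and matplotlib 3.10.9 for permutation tests and plots. A count filter (filterByExpr, minimum count 10, minimum total 15) kept 13771 genes, and TMM set the scaling. The diets were compared by glmQLFit and glmQLFTest with no covariate, and p-values were adjusted by Benjamini-Hochberg over all genes tested. Standard errors are the fold change over the square root of F. For correlations the prior count was 2, and 0.5 counts were added for log2 ratios. Poisson intervals and the floor of 3 counts cover counting error only. The code was tested on simulated data. The members and lists were chosen with earlier results of these data known. Named genes are the 10 core clock genes, 7 set clock genes, further clock genes with an unadjusted p under 0.05 or separate diets, genes of the 3 response lists with an unadjusted p under 0.05, and the 5 genes most and least like Dbp. Some genes of summed lists are named beside the sums. Replicate numbers did not pair the libraries (correlations of deviations from the diet means -0.03, 0.05 and -0.06). Positions come from GENCODE vM21 and upstream sequences from RefSeq on GRCm38.p6.

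Marker lists were summed per library. Over the 6 libraries the sums, in CPM, were 5073 to 5318 for neurons, 807 to 904 for forebrain, 1825 to 1974 for astrocytes, 7470 to 9084 for oligodendrocytes, 296 to 321 for microglia, 153 to 184 for endothelium, 1031 to 1294 for choroid plexus, 91.8 to 148 for cerebellum, 135 to 216 for the suprachiasmatic nucleus and 929 to 1004 for the temperature-responsive genes.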

Additional observations from a re-analysis of the deposited data

How the results depend on the processing

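The number of core clock genes with an adjusted p under 0.05 was 0 under every alternative run, namely DESeq2, other scalings, other count filters, a replicate block, highly abundant genes left out and each library left out in turn. With an unadjusted threshold of 0.05 the count of core clock genes ran from 0 to 1 when 1 library was left out (Per1 without HFD replicate 2) and was 0 otherwise, and that of the further clock genes was 0 under the same alternatives. Cry1, Cry2 and Per3 kept their sign throughout. The other core clock genes had fold changes that crossed 0 when 1 library was left out, with log2 ranges for Arntl (-0.0494 to 0.0898), Clock (-0.0233 to 0.0782), Per1 (-0.406 to 0.0444), Per2 (-0.138 to 0.0669), Nr1d1 (-0.172 to 0.0705), Nr1d2 (-0.0724 to 0.0829) and Dbp (-0.076 to 0.0415). Further clock genes that crossed 0 were Rora (-0.0438 to 0.0728), Rorb (-0.0221 to 0.0519), Tef (-0.045 to 0.0624), Hlf (-0.0529 to 0.0753), Timeless (-0.375 to 0.451), Fbxw11 (-0.0888 to 0.112), Gsk3b (-0.224 to 0.0702) and Ccrn4l (-0.231 to 0.045). So did the log2 ratios to Arntl of Dbp (-0.144 to 0.0107), Per1 (-0.50 to 0.0277) and Nr1d1 (-0.207 to 0.0646). With library size alone as scaling, signs turned for Nr1d2 (-0.00509), Rorb (-0.00753), Tef (-0.00362) and Hlf (-0.00512). With quantile normalization and limma they turned for Tef (-0.0103), Hlf (-0.00954) and Timeless (0.0784). The replicate numbers share only a number, and with the replicate block the sign turned for Rora (0.00111) and Timeless (0.0405), with 0 core clock genes called. The count of gene pairs with r past 0.8 in either direction, 9 of 45, was 18 with replicate means removed as a block, and ran from 6 without NCD replicate 3 or HFD replicate 3 to 15 without NCD replicate 1. Removing replicate means leaves the NCD and HFD library of each number at equal and opposite deviations. The share over all pairs was computed for the main setting alone, so these counts are not directly comparable with 9. Why these values moved was not tested. Depth limits the low genes most, with 78 to 109 counts of Arntl per library.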
